A study of Mus musculus with 70 samples.

Results

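The lysyl oxidase genes Lox, Loxl1, Loxl2, Loxl3 and Loxl4 and the matrix genes Postn, Aspn, Ltbp2, Tnmd and Nid2 were followed in mouse cells that express a constitutively active kinase. They are 10 of the 21859 genes in the deposited expression table, found there by their symbols. The members were chosen by their FPKM values in embryonic fibroblasts with doxycycline against those without it and by the day 7 difference between the kinases, so their values in these comparisons are a description and carry no test. The study sequenced messenger RNA in bulk from 70 libraries of male C57BL/6 material that form 26 groups, of which 18 hold 3 libraries and 8 hold 2. The drug doxycycline turns on active MEK1 (caMEK1), which signals through ERK and is used as a model of oncogene-induced senescence, or active MKK6 (caMKK6), which signals through p38 and is used as a model of stress-induced senescence. The mouse embryonic fibroblasts (MEFs) came from embryos without head and viscera at embryonic day 13.5, and each genotype gave 4 groups of 3 libraries, untreated at day 2 and with 2 µg/mL doxycycline at days 2, 4 and 7. Liver and colon epithelium came from chimeric mice with mCherry in cells able to express the kinase and GFP in the surrounding cells, and cells of both colours were sorted after 7 days of doxycycline in the drinking water. GFP cells were also sorted from untreated caMEK1, caMKK6 and control mice, and control mice on doxycycline carried the colours without an active kinase. Doxycycline in the water was 0.2 mg/mL for caMEK1 mice, whereas caMKK6 mice and controls drank 2 mg/mL, so kinase and dose cannot be told apart between them. No untreated MEFs older than day 2 were used, so the drug and the longer culture cannot be told apart for days 4 and 7, and treated MEFs without an active kinase were not analysed here. The promoter that drives each transgene and the age of the mice are not given in the sources used here, and no label says that replicate MEF libraries came from separate cultures, so p-values measure the spread between these samples.

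Lysyl oxidases are copper enzymes secreted by connective tissue cells. They oxidise lysine residues of collagen and elastin, and the aldehydes that form then join neighbouring chains, which gives collagen fibres and elastic fibres their strength. Lox and Loxl1 act on collagen and elastin after proteolytic release of a propeptide, whereas Loxl2, Loxl3 and Loxl4 carry scavenger receptor domains in front of the catalytic domain. The 5 other genes encode proteins of the same matrix. Periostin (Postn) binds collagen and helps to recruit the protease that activates Lox, asporin (Aspn) is a small leucine-rich proteoglycan that binds collagen and TGF-beta, Ltbp2 is a microfibril protein that binds fibrillin, tenomodulin (Tnmd) is a membrane protein of tendon and ligament cells, and nidogen 2 (Nid2) links laminin to collagen IV in basement membranes.

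The values are FPKM, read counts scaled to exon length and library depth, so levels of different genes can be set beside each other per length. The steps between values gave back whole reads, with 10499019 to 17150052 reads in genes per MEF library, 9096993 to 14297505 in liver and 6358587 to 16647561 in colon. The MEK1 transgene, a frog sequence, stood at 459.6 to 1169 FPKM in treated caMEK1 MEFs and the human MKK6 transgene at 129.7 to 1209 FPKM in treated caMKK6 MEFs. Frog MEK1 was also listed above 5 FPKM in 5 of the 12 caMKK6 MEF libraries (untreated replicates 2 and 3, day 2 replicates 2 and 3, day 4 replicate 2). Some results on caMKK6 MEFs are also given without these. Among differences from untreated cells this holds for Lox, Postn, Ltbp2, Loxl2 at day 7 and Aspn at day 4. The differences of the other members are given with all libraries only. Without the libraries that list frog MEK1, untreated caMKK6 MEFs and day 2 are left with replicate 1 alone, and day 4 with replicates 1 and 3. Differences from untreated cells, and counts of genes, then rest on that 1 untreated library and are no replicated check. Of 10 fibroblast markers 8 reached 1 FPKM in every MEF library. The sum of the 10 was lower in treated MEFs of both genotypes (1411 to 1757 FPKM on caMEK1 against 2273 to 2594 untreated, and 1813 to 2647 FPKM on caMKK6 against 2650 to 3028 untreated). The list holds matrix genes that are counted again below. Col1a1 and Col1a2 were called lower on each day of caMEK1 and at days 2 and 4 of caMKK6. Dcn and Lum were called higher on each day with both kinases. The sum is thus no measure of fibroblasts apart from the matrix genes. A list of 7 stellate and smooth muscle markers summed to 344.1 to 446.2 FPKM in untreated caMEK1 MEFs and 38.45 to 110.6 FPKM on caMEK1, and to 285 to 392.9 FPKM untreated and 218.1 to 882.2 FPKM on caMKK6, with Lrat at 0 in 23 of 24 libraries, and the part of these cells in the members' values was not tested. In bulk samples fewer cells of a type and less RNA per cell cannot be told apart.

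The promoters of Postn and Aspn are shown because Postn lay below its untreated level on caMEK1 and above it on caMKK6, and Aspn was called higher at a later day with both kinases. Each run holds the 250 bases before the start site given by RefSeq (build GRCm38.p6), 5′ to 3′ on the strand of the gene, which is the plus strand for both. The capitals mark matches to the TATA motif TATAAA on either strand.
Postn, chr3:54360857-54361106: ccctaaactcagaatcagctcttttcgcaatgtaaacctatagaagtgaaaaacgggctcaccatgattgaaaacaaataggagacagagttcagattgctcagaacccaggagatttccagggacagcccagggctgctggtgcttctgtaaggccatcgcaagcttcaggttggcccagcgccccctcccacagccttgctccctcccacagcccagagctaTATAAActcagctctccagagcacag
Aspn, chr13:49544193-49544442: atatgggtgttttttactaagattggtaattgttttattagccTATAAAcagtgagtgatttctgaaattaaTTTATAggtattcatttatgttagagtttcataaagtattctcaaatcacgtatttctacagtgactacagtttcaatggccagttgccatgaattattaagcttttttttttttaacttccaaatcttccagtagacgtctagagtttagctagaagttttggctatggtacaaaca
The Postn match begins 26 bases before the start site. The Aspn matches begin 207 and 178 bases before it. Lox was left out of the promoter search by choice, so its absence here says nothing about RefSeq's table. Loxl1, Loxl2, Loxl3 and Nid2 were not found in that table. The search thus used 6 windows for 5 of the 10 members (Loxl4, Postn with 2, Aspn, Ltbp2 and Tnmd). TATAAA was present in 2 of the 6, against 12.4% of 32851 windows of the same length. The TEAD motif CATTCC (12.6% of all windows), the AP-1 motif TGANTCA (6.75%) and the serum response motif called CArG (1.47%) were searched on both strands and matched in 0 of the 6 member windows, which says only that these letters are not in these 250 bases.

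Lox, the founding enzyme of the family (18:52516067-52529867, minus strand), had the highest level of the 5 lysyl oxidases in every MEF library. The 3 untreated caMEK1 libraries held 616, 671 and 587 FPKM of Lox. With caMEK1 the libraries held 96.1, 104 and 87.8 FPKM at day 2, 41.3, 41.0 and 43.0 FPKM at day 4, and 40.6, 63.0 and 60.1 FPKM at day 7. All 9 treated libraries were below all untreated ones, and at day 4 the mean was 15.0-fold lower. The log2 difference from untreated cells, on the log2(FPKM + 1) scale used throughout, was -2.69 ± 0.12 (SE, n = 3 against 3) at day 2, -3.87 ± 0.12 at day 4 and -3.52 ± 0.12 at day 7.

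The same gene moved little with caMKK6. Untreated caMKK6 MEFs held 634, 583 and 523 FPKM of Lox, close to the caMEK1 cells without doxycycline. The treated libraries held 441, 468 and 437 FPKM at day 2, 340.2, 340.1 and 393 FPKM at day 4, and 374.3, 363 and 399 FPKM at day 7. They too were all below the untreated libraries, with log2 differences of -0.37 ± 0.12, -0.69 ± 0.12 and -0.61 ± 0.12. Without the libraries that list frog MEK1 the differences were -0.52, -0.79 and -0.74.

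Loxl1, whose product is needed for elastic fibres (9:58287738-58313186), came next in untreated MEFs and on caMEK1, whereas Loxl2 had the higher mean in the treated caMKK6 groups (57.7, 68.0 and 86.8 FPKM against 53.4, 45.8 and 52.1 FPKM for Loxl1). Loxl1 stood at 101 ± 5.53 FPKM (SD, n = 3) in untreated caMEK1 MEFs and at 32.1 ± 2.72 FPKM at day 4. Log2 differences were -1.14, -1.62 and -1.46 (SE 0.21 each) for days 2, 4 and 7 of caMEK1. For caMKK6 they were -0.65, -0.90 and -0.74, from an untreated level of 83.9 ± 3.71 FPKM. The groups did not overlap on any day with either kinase.

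Loxl2, a cross-linker of fibrillar collagen and collagen IV (14:69609068-69695834), parted between the kinases. Untreated caMEK1 libraries held 51.6, 64.6 and 55.9 FPKM of Loxl2, and day 7 libraries 11.8, 18.1 and 18.7 FPKM, a log2 difference of -1.78 ± 0.21. Untreated caMKK6 libraries held 85.8, 66.8 and 81.8 FPKM. On caMKK6 they held 65.4, 40.8 and 66.7 FPKM at day 2, and 75.2, 78.0 and 107 FPKM at day 7. The caMKK6 groups overlapped at days 4 and 7, where the log2 differences were -0.22 ± 0.21 and 0.14 ± 0.21, the latter -0.0015 without the libraries that list frog MEK1.

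Loxl3 and Loxl4 were the less abundant members of the family. Loxl3 (6:83034173-83052562) held 34.3, 34.7 and 25.3 FPKM in untreated caMEK1 libraries and 60.6, 71.8 and 40.0 FPKM in untreated caMKK6 libraries. After 2 days of caMKK6 it held 19.5, 16.1 and 16.6 FPKM, a log2 difference of -1.63 ± 0.24, and after 2 days of caMEK1 22.3, 19.1 and 16.6 FPKM, a difference of -0.67 ± 0.24. At day 7 the differences were -1.16 ± 0.24 with caMEK1 and -1.21 ± 0.24 with caMKK6. Loxl4 (19:42593982-42612813) stood at 15.2 ± 1.17 FPKM in untreated caMEK1 MEFs and 14.1 ± 1.65 FPKM in untreated caMKK6 MEFs. Its log2 differences at days 2, 4 and 7 were -0.73, -1.14 and -1.03 with caMEK1 and -1.15, -1.05 and -0.69 with caMKK6 (SE 0.21 each). Treated and untreated libraries of both genes did not overlap on any day.

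**Figure D1:**
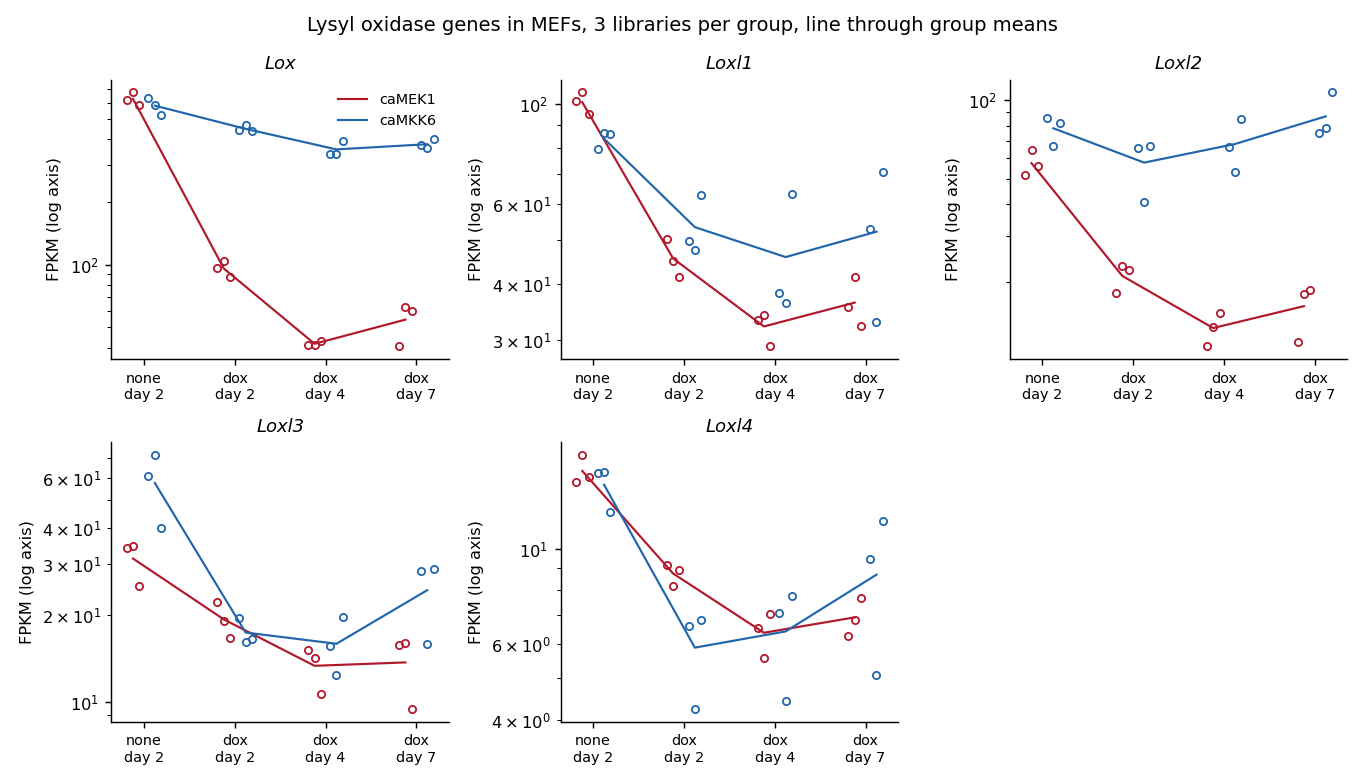
FPKM (log axis) of the 5 lysyl oxidase genes in each MEF library by treatment and day, caMEK1 in red and caMKK6 in blue, with a line through the means of 3 libraries. Lox separates the kinases most, from 616, 671 and 587 FPKM to about 41 to 43 FPKM at day 4 of caMEK1, while the caMKK6 libraries stay between 340.1 and 468 FPKM on doxycycline.

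Since Lox carried most of the signal, the summed FPKM of the family followed it. The sum was 830 ± 58.3 FPKM in untreated caMEK1 MEFs and 107 ± 1.84 FPKM at day 4, and it was 814 ± 66.1 FPKM in untreated caMKK6 MEFs and 494 ± 65.2 FPKM at day 4. Lox made up 75.3% ± 0.149 of the sum in untreated caMEK1 cells and 39.1% ± 1.68 at day 4. Over the same days the share of Loxl1 went from 12.2% ± 0.276 to 30.0% ± 2.05, so that Loxl1 stood near Lox in level. With caMKK6 the share of Lox was 71.2% ± 1.06 untreated and 72.7% ± 3.54 at day 4.

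Postn, the gene of periostin (3:54361109-54391037), differed in direction between the kinases. Untreated caMEK1 libraries held 29.5, 33.3 and 31.2 FPKM. On caMEK1 they held 7.18, 8.64 and 7.26 FPKM at day 2, 2.19, 2.97 and 2.04 FPKM at day 4, and 3.03, 5.28 and 3.75 FPKM at day 7. The log2 differences were -1.90, -3.26 and -2.71 (SE 0.22 each). Untreated caMKK6 libraries held 67.0, 94.3 and 72.4 FPKM. On caMKK6 they held 108, 151 and 126 FPKM at day 2, 97.6, 179 and 161 FPKM at day 4, and 95.02, 168 and 125 FPKM at day 7. All 9 treated libraries were above all untreated ones, though the lowest day 7 library and the highest untreated library nearly met. The differences were 0.71, 0.87 and 0.70 (SE 0.22 each), and 0.68, 0.90 and 0.90 without the libraries that list frog MEK1. The promoter printed above is that of the start site beside the annotated gene start.

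Aspn (13:49544443-49567565) was low by day 2 with both kinases and higher again later. Untreated libraries held 16.9, 16.6 and 16.3 FPKM (caMEK1) and 15.9, 23.3 and 19.0 FPKM (caMKK6). With caMEK1 they held 0.427, 0.394 and 0.309 FPKM at day 2, 0.622, 0.757 and 0.260 FPKM at day 4, and 3.25, 3.68 and 2.12 FPKM at day 7. With caMKK6 they held 1.94, 1.89 and 3.92 FPKM at day 2, 5.19, 3.88 and 13.7 FPKM at day 4, and 21.9, 12.5 and 28.3 FPKM at day 7. The day 2 mean was 44.1-fold lower on caMEK1 and 7.50-fold lower on caMKK6. By day 7 the caMKK6 libraries overlapped the untreated ones, with a log2 difference of 0.05 ± 0.32, whereas the caMEK1 libraries were still below theirs at -2.15 ± 0.32. At day 4 of caMKK6 the difference was -1.40 ± 0.32, and -0.83 without the libraries that list frog MEK1.

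Ltbp2 (12:84783212-84876532) was lower with both kinases. Untreated caMEK1 libraries held 52.7, 48.8 and 38.5 FPKM, and those on caMEK1 12.4, 10.96 and 8.97 FPKM at day 2 and 18.1, 21.3 and 16.6 FPKM at day 7. The 3 caMKK6 libraries of a day spread widely. They held 3.89, 2.81 and 11.4 FPKM at day 2 and 7.68, 1.63 and 18.1 FPKM at day 7, against 27.4, 35.5 and 37.8 FPKM untreated. The log2 differences at days 2, 4 and 7 were -2.02, -2.37 and -1.27 with caMEK1 and -2.48, -2.82 and -2.17 with caMKK6 (SE 0.58 each). Without the libraries that list frog MEK1 the caMKK6 differences were -2.53, -1.95 and -1.90.

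Tnmd (X:133850980-133865577) went nearly out of detection with caMEK1. Untreated caMEK1 libraries held 18.0, 20.99 and 14.8 FPKM, and those of day 4 held 0.291, 0.329 and 0.339 FPKM, a mean 56.1-fold lower. In untreated caMKK6 MEFs it stood at 5.58, 9.67 and 5.34 FPKM, and after 7 days of caMKK6 at 1.67, 0.921 and 1.76 FPKM. The groups did not overlap on any day. Log2 differences were -2.77, -3.83 and -3.58 with caMEK1 and -1.74, -1.84 and -1.66 with caMKK6 (SE 0.23 each). Since 1 is added before the logarithm, these values understate the change of a gene this low.

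Nid2 (14:19751265-19811787) lay further below its untreated level on caMKK6 than on caMEK1. With all libraries included Ltbp2 did so too on each day (SE 0.58 each), as did Loxl3, by only 0.05 ± 0.34 at day 7, and Loxl4 at day 2. Untreated caMEK1 libraries held 17.1, 30.0 and 18.1 FPKM, those at day 2 of caMEK1 19.7, 20.1 and 23.99 FPKM, and those at day 7 12.8, 11.7 and 14.6 FPKM. The caMEK1 groups overlapped at days 2 and 4, with log2 differences of 0.01 ± 0.34 and -0.26 ± 0.34, and stood apart at day 7 at -0.66 ± 0.34. The direction at day 2 turned with median scaling and with 3 single libraries left out. Untreated caMKK6 libraries held 14.9, 15.4 and 16.1 FPKM. On caMKK6 they held 4.37, 2.65 and 6.13 FPKM at day 2, 1.88, 1.120 and 4.81 FPKM at day 4, and 3.36, 0.977 and 4.57 FPKM at day 7. All of these were below the untreated libraries, with differences of -1.67, -2.32 and -2.18 (SE 0.34 each).

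**Figure D2:**
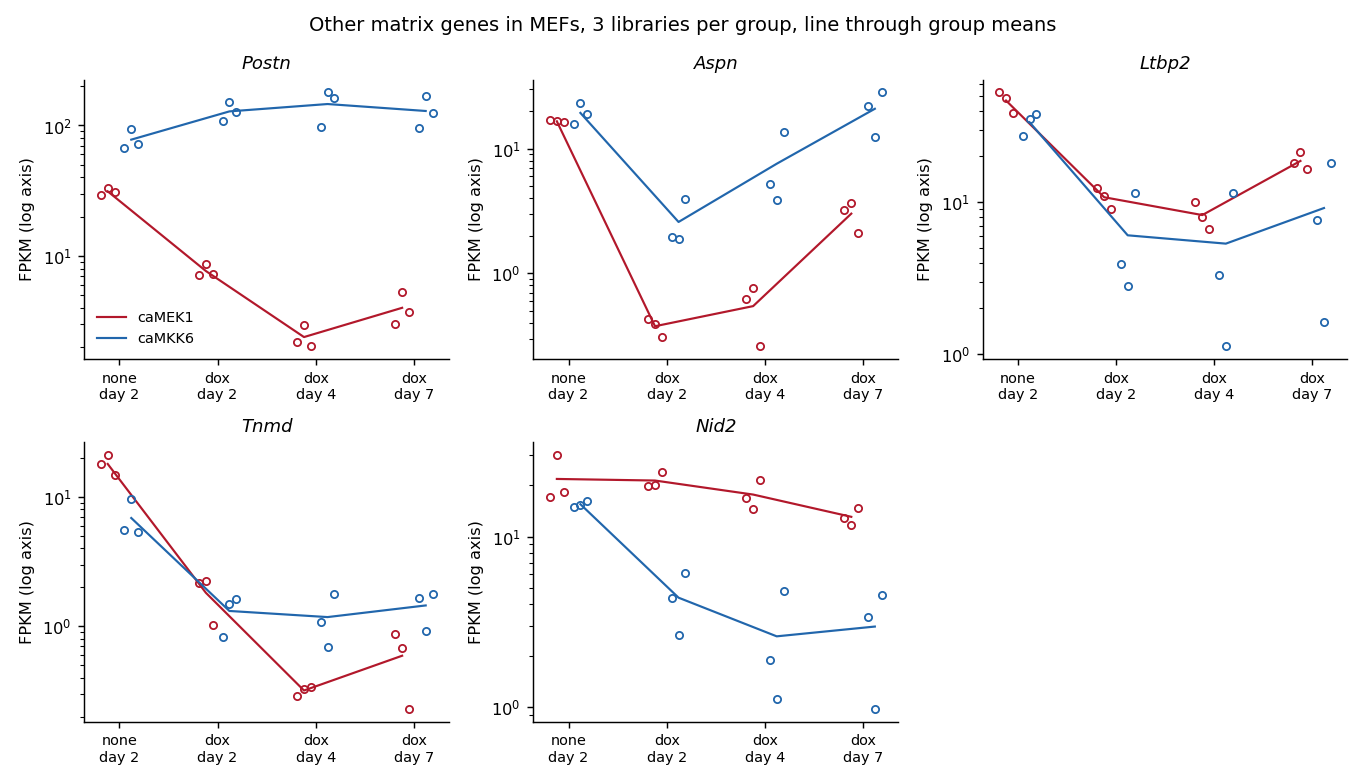
FPKM (log axis) of the 5 other matrix genes in each MEF library by treatment and day, caMEK1 in red and caMKK6 in blue, with a line through the means of 3 libraries. Postn lies lower on caMEK1 and higher on caMKK6, Aspn at day 7 of caMKK6 overlaps its untreated values, and Nid2 is lowest on caMKK6.

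Counted together, 9 of the 10 members had all 3 libraries below all 3 untreated ones at day 2 of caMEK1, 9 at day 4 and 10 at day 7, with Nid2 the exception at days 2 and 4. The share of all 11347 tested genes that did so was 29.2%, 34.4% and 31.0%. With caMKK6 9, 8 and 7 members lay wholly below, where 30.0%, 31.4% and 25.9% of all genes did, and Postn lay wholly above on each day, as did 17.7%, 19.6% and 18.7% of all genes. The exceptions were Loxl2 at day 4 and Loxl2 and Aspn at day 7. These comparisons chose the members, so nothing is read from the counts. The day 7 difference between the kinases, caMEK1 minus caMKK6 after subtracting the untreated level of each, was lowest for Postn (-3.41 ± 0.31), Lox (-2.91 ± 0.17), Aspn (-2.20 ± 0.45), Loxl2 (-1.92 ± 0.29) and Tnmd (-1.92 ± 0.33). It was 0.05 ± 0.34 for Loxl3, whose sign turned with median scaling, 0.90 ± 0.81 for Ltbp2, and 1.52 ± 0.49 for Nid2, the highest of the 10.

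**Figure D3:**
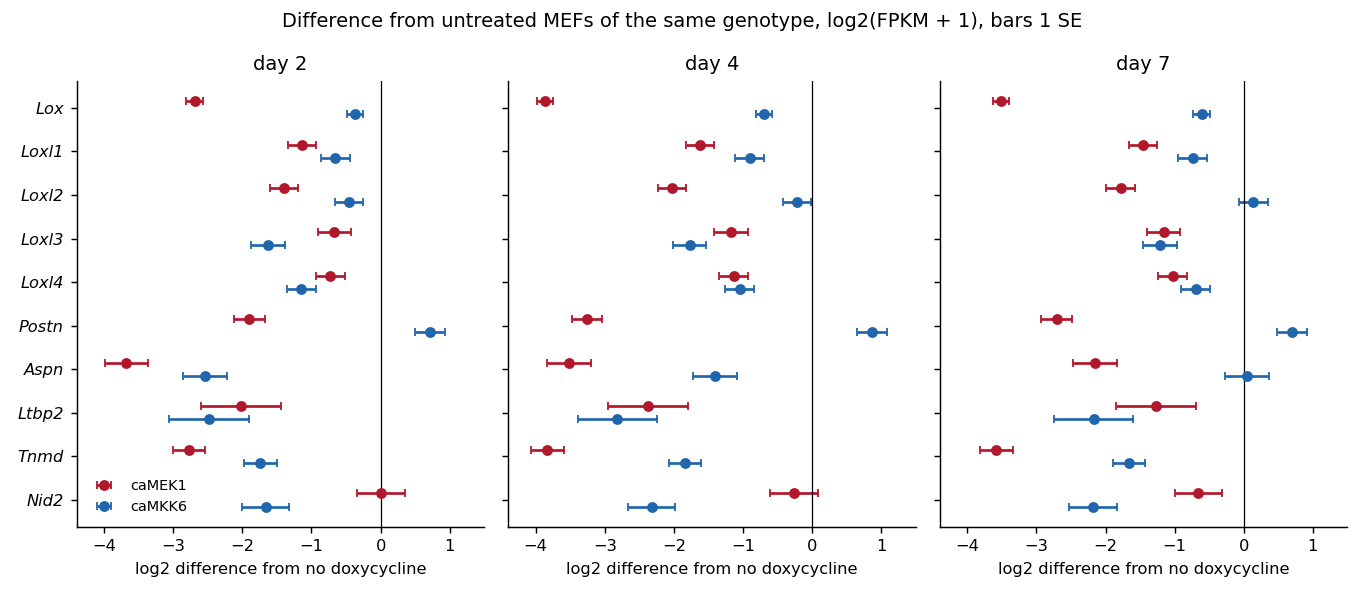
Log2 difference from untreated MEFs of the same genotype for each member at days 2, 4 and 7, on the log2(FPKM + 1) scale, with bars of 1 SE (3 libraries against 3). Lox and Postn lie farthest apart between caMEK1 (red) and caMKK6 (blue) on every day, whereas the Loxl3 and Loxl4 points lie close together by day 7.

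Steps between treated days did not choose the members and were tested, although they share libraries with the comparisons that did. From day 2 to day 4 of caMEK1, 4 of 10 members fell at an adjusted p below 0.05 (limma, Benjamini-Hochberg adjustment over all genes), where 15.1% of all genes fell. Lox fell by 1.18 ± 0.12 on the log2 scale (adjusted p = 6.6e-07), Postn by 1.36 ± 0.22 (adjusted p = 9.8e-05) and Tnmd by 1.06 ± 0.23 (adjusted p = 0.0018). Loxl2 fell by 0.63 ± 0.21 (adjusted p = 0.024), and its call was lost without day 2 replicate 2 or 3 or day 4 replicate 1 or 2 (adjusted p = 0.0556 to 0.1). With replicate number as a block within genotype, Loxl1 (-0.49, adjusted p = 0.0093), Loxl3 (-0.51, adjusted p = 0.049) and Loxl4 (-0.41, adjusted p = 0.046) were called as well. The 5 lysyl oxidases, Postn and Tnmd had all day 4 libraries below all day 2 libraries, as did 25.1% of all genes.

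From day 4 to day 7 of caMEK1 Aspn rose by 1.37 ± 0.32 (adjusted p = 0.022, where 2.16% of all genes rose and 1.45% fell, against 1.45% and 2.31% with median scaling). Its call was lost with limma's voom on recovered reads (2.50, adjusted p = 0.13) and without any 1 of day 4 replicates 1, 2 and 3 and day 7 replicates 1 and 2 (adjusted p = 0.0554 to 0.101). Under the replicate block within genotype Lox (0.35, adjusted p = 0.047), Postn (0.55, adjusted p = 0.0021) and Ltbp2 (1.10, adjusted p = 0.035) were called higher too. Without the block they stood at adjusted p = 0.11, 0.17 and 0.31, and without day 7 replicate 1 Lox was called (0.55, adjusted p = 0.0047). All 3 day 7 libraries of Postn, Ltbp2 and Aspn lay above the 3 of day 4, as they did for 15.6% of all genes.

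With caMKK6 Aspn rose at both steps, by 1.13 ± 0.32 from day 2 to day 4 (adjusted p = 0.020, where 7.39% of all genes rose) and by 1.45 ± 0.32 from day 4 to day 7 (adjusted p = 0.020, where 1.94% rose and 1.06% fell, against 1.33% and 1.48% with median scaling). It was the 1 member called at either step, and neither call was firm. The first was lost with voom (1.38, adjusted p = 0.070), with each genotype fitted alone (adjusted p = 0.093) and without day 2 replicate 1 or 2 or day 4 replicate 3 (0.66 to 1.02, adjusted p = 0.0702 to 0.122). The second was lost with each genotype fitted alone (adjusted p = 0.15), without the libraries that list frog MEK1 (1.13, adjusted p = 0.15) and without day 4 replicate 1 or 2 or day 7 replicate 1 or 3 (adjusted p = 0.0723 to 0.124). Under the replicate block within genotype Lox (-0.33, adjusted p = 0.038) and Nid2 (-0.66, adjusted p = 0.047) fell further from day 2 to day 4, and Loxl2 rose from day 4 to day 7 (0.36, adjusted p = 0.047). Leaving out 1 library also brought calls, for Nid2 without day 4 replicate 3 (-1.07, adjusted p = 0.044), and for Loxl3 (0.83, adjusted p = 0.038) and Loxl4 (0.66, adjusted p = 0.029) without day 7 replicate 2.

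Before doxycycline the genotypes already differed for 3 of the 10 members, 1 higher and 2 lower in caMEK1 cells, where 4.08% of all genes were higher and 2.4% lower, against 2.81% and 2.88% with median scaling. Postn was lower in untreated caMEK1 than in untreated caMKK6 MEFs (-1.27 ± 0.22, adjusted p = 0.0017), and Tnmd was higher (1.30 ± 0.23, adjusted p = 0.0027). Loxl3 was lower (-0.82 ± 0.24, adjusted p = 0.048). Without the caMKK6 libraries that list frog MEK1, which leaves 1 untreated caMKK6 library that is assumed to vary like the other groups, Postn (-1.07, adjusted p = 0.079) and Loxl3 (-0.94, adjusted p = 0.16) were not called, and Tnmd was (1.51, adjusted p = 0.016). The Loxl3 call was also lost with a pseudocount of 0.1 (adjusted p = 0.056), with no filter (adjusted p = 0.071), and without any 1 of the 3 untreated caMEK1 libraries or caMKK6 replicates 1 and 2 (adjusted p = 0.0793 to 0.208). Lox, at 625 ± 42.7 and 580 ± 55.1 FPKM, was not called (0.11 ± 0.12, adjusted p = 0.64).

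In treated caMKK6 libraries many members were lowest in the same replicate. Replicate 2 had the most MKK6 transgene on every day, at 1209, 1119 and 666.2 FPKM against 892, 584 and 205.8 FPKM in the next library. In that replicate 7, 9 and 8 of the 10 members had their lowest value of the day at days 2, 4 and 7, and Postn had its highest on all 3 days, as Lox did at day 2. Ltbp2 and Nid2 showed this most, at 1.63 and 0.977 FPKM on day 7 against at least 7.68 and 3.36 FPKM in the other two. The same replicate lists frog MEK1 on days 2 and 4 and not on day 7. Over all tested genes the treated replicate 2 libraries of caMKK6 deviated together from their groups (r = 0.496 to 0.803), so the 3 days are not separate observations. The part of transgene level in these values was not tested. In caMEK1 libraries, where replicate 3 had the most frog MEK1, 6, 5 and 5 members were lowest in it and 1, 5 and 3 were highest. The shares of all genes lowest or highest in these replicates were not counted, so nothing is read from the counts of either kinase.

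Across the 24 MEF libraries the members fell into no single pattern, as Pearson's r of log2 values shows. These libraries share genotype and treatment, so r is a description only. Lox went with Loxl2 (r = 0.939) and Postn (r = 0.889), and Loxl2 with Postn (r = 0.927). Loxl1 went with Tnmd (r = 0.920), and Ltbp2 with Loxl4 (r = 0.851) and Nid2 (r = 0.741). Nid2 ran against Postn (r = -0.700). Among all other genes, the 3 most like Lox were Dnajb4, Col5a2 and Gpr176 (r = 0.985, 0.985 and 0.981). Col5a2, a collagen V chain, was also among the 3 most like Loxl2, after Tns1 and the smooth muscle actin Acta2 (r = 0.976 and 0.973). For Postn they were Col12a1, Wnt5a and Dyrk2 (r = 0.973, 0.969 and 0.963), for Aspn Tmem119, Cd248 and Mxra7 (r = 0.968, 0.964 and 0.964), and for Nid2 the immediate early gene Egr1, Map2k3 and Rasa3 (r = 0.958, 0.946 and 0.943). Egr1 stood at 38.3 ± 7.06 FPKM in untreated caMKK6 MEFs and 2.72 ± 1.28 FPKM at day 7, and at 56.4 ± 5.20 and 37.1 ± 4.24 FPKM in caMEK1 MEFs. For Loxl1 they were Rhoj, Trim47 and Col11a1 (r = 0.956 to 0.970), for Loxl3 Pdgfrb, Bicc1 and Klf4 (r = 0.923 to 0.931), for Loxl4 Pdk3, Kctd17 and Septin8 (r = 0.943 to 0.947), for Ltbp2 Ifi27, Zfp365 and Clca3a1 (r = 0.939 to 0.949), and for Tnmd Il6st, Hdac7 and Trim47 (r = 0.937 to 0.945).

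Aspn lies in a row of small leucine-rich proteoglycan genes on chromosome 13, with 11653 bases from Ecm2 to Aspn, 14896 from Aspn to Omd and 15223 from Omd to Ogn. Ogn (osteoglycin) took a course like that of Aspn. It stood at 14.5 ± 0.859, 1.02 ± 0.257, 0.602 ± 0.106 and 2.11 ± 0.822 FPKM in untreated and day 2, 4 and 7 caMEK1 MEFs, and at 8.88 ± 1.08, 2.08 ± 1.23, 5.92 ± 4.11 and 13.02 ± 5.85 FPKM in caMKK6 MEFs. Ogn fell by day 2 with caMEK1 (-2.95 ± 0.35, adjusted p = 1.1e-06) and with caMKK6 (-1.75 ± 0.35, adjusted p = 0.00065). Mean levels of Omd and Ecm2 were below 1 FPKM in every MEF group. Cenpp spans the row on the other strand and shares exon bases with Aspn, as Htra2 does with Loxl3 and Rtraf with Nid2. Antisense genes share exon bases with Lox, Loxl2 and Ltbp2. The sources used here do not say whether counting used strand, so reads of these pairs are uncertain as to the gene. Cenpp reached 2.61 FPKM at most in MEFs, below Aspn in untreated cells and, in group median, above it at days 2 and 4 of caMEK1. Htra2 stayed between 17.99 and 29.25 FPKM, and Rtraf at 31.19 to 57.06 FPKM in the caMKK6 libraries in which Nid2 was low.

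The genes around the members were taken from 7 lists of matrix genes, 88 genes in all, of which 75 passed the filter in MEFs. The lists were chosen with earlier results of these data known, and the same comparisons chose the members. The counts and adjusted p-values of listed genes, here and below, describe these genes and are no test of the lists. At day 7 of caMEK1 50 of the 75 fell and 12 rose, with a median log2 difference of -0.71, against 0.03 for all genes, of which 28.7% fell and 33.4% rose. At day 2 46 fell and 9 rose, against 19.8% and 19.5% of all genes, and at day 4 54 fell and 11 rose, against 29.3% and 28.5%. With caMKK6 42 fell and 4 rose at day 2 (24.8% and 14.3% of all genes), 45 and 6 at day 4 (27.7% and 17.1%) and 22 and 8 at day 7 (24% and 16.8%). With median scaling the caMKK6 shares of all genes that fell and rose were 18.3% and 20.6% at day 2, 20.4% and 23.9% at day 4, and 19.4% and 20.5% at day 7. The caMKK6 medians were -0.46, -0.49 and -0.21. Without the libraries that list frog MEK1 the caMKK6 counts were 14 and 2, 24 and 2, and 11 and 3, and without day 7 replicate 2 11 genes fell at day 7.

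Fibrillar and associated collagens, the substrates of the lysyl oxidases, fell for 9 of 12 at day 7 of caMEK1 (median -1.70). Col5a2 (29.7 ± 7.14 against 158 ± 21.4 FPKM, -2.40 ± 0.14, adjusted p = 2.1e-11) and the main chain of type I collagen Col1a1 (114 ± 21.5 against 576 ± 99.3 FPKM, -2.33 ± 0.22, adjusted p = 2.8e-08) were among them, and Col11a1 fell by 2.42 ± 0.38 (adjusted p = 1.5e-05). With caMKK6 9 of the 12 fell at day 2 and 4 at day 7. Those at day 7 included Col6a3 (-1.79 ± 0.44, adjusted p = 0.0031), Col5a1 (-0.55 ± 0.15, adjusted p = 0.0067) and Col5a2 (-0.39 ± 0.14, adjusted p = 0.034). Of 19 collagen processing and cross-linking genes 16 fell on caMEK1 at day 7, among them the transglutaminase Tgm2 (-2.77 ± 0.38, adjusted p = 3.6e-06), the prolyl hydroxylase subunit P4ha3 (-1.94 ± 0.40, adjusted p = 0.00034) and Tll1 (-1.78 ± 0.25, adjusted p = 4.7e-06). Bmp1, the protease that removes the Lox propeptide, rose at day 7 with caMEK1 (1.01 ± 0.10, adjusted p = 3.2e-08) and with caMKK6 (0.69 ± 0.10, adjusted p = 1.9e-05). The collagen chaperone Serpinh1 fell with caMKK6 (692.5 ± 71.9 against 1007 ± 38.8 FPKM, -0.54 ± 0.09, adjusted p = 0.00012), as did P4ha3 (-1.48 ± 0.40, adjusted p = 0.0062).

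Elastic fibre and microfibril genes fell for 10 of 16 at day 7 of caMEK1 and 4 of 16 with caMKK6. Elastin itself, Eln, fell with caMEK1 (-2.09 ± 0.21, adjusted p = 5.8e-08) and with caMKK6 (-0.64 ± 0.21, adjusted p = 0.021). Fbln5, which tethers Loxl1 to elastic fibres, went from 72.4 ± 7.82 to 10.1 ± 1.48 FPKM with caMEK1 (-2.72 ± 0.13, adjusted p = 7.3e-13) and from 81.8 ± 10.8 to 45.0 ± 6.35 FPKM with caMKK6 (-0.85 ± 0.13, adjusted p = 2.9e-05). Mfap5 (-2.44 ± 0.20, adjusted p = 2.2e-09) and fibrillin 1, Fbn1 (-1.83 ± 0.19, adjusted p = 1.1e-07), fell with caMEK1, and Fbln1 (-0.82 ± 0.14, adjusted p = 0.00016) and Fbn1 (-0.80 ± 0.19, adjusted p = 0.0027) with caMKK6. Among the relatives of Ltbp2, Ltbp4 rose at day 7 of caMEK1 (1.29 ± 0.15, adjusted p = 3.5e-07), as did Ltbp3 (0.53 ± 0.15, adjusted p = 0.0039), and Ltbp1 stood at 56.7 ± 8.89 FPKM against 56.5 ± 7.53 FPKM untreated.

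Small leucine-rich proteoglycans related to Aspn moved both ways, with 4 of 7 lower and 2 higher at day 7 of caMEK1. The 2 higher were Dcn and Lum, which were called higher on each day with both kinases. Fmod went from 6.56 ± 0.563 to 0.313 ± 0.0848 FPKM (-2.53 ± 0.16, adjusted p = 8.3e-11), Prelp fell by 2.40 ± 0.16 (adjusted p = 1.3e-10) and Ogn by 2.35 ± 0.35 (adjusted p = 8.0e-06). With caMKK6 at day 7 Lum (2.13 ± 0.50, adjusted p = 0.0022) and Dcn (1.16 ± 0.31, adjusted p = 0.0058) rose and Bgn fell (-0.63 ± 0.20, adjusted p = 0.016). Basement membrane genes fell for 7 of 12 with caMEK1 and 6 of 12 with caMKK6 at day 7. With caMEK1 these included both chains of the main type IV collagen, Col4a2 (-1.63 ± 0.23, adjusted p = 4.8e-06) and Col4a1 (-1.59 ± 0.27, adjusted p = 3.6e-05), and the laminin chain Lama4 (-0.91 ± 0.21, adjusted p = 0.00077). With caMKK6 they included Lamc1 (-0.91 ± 0.17, adjusted p = 0.00024), Agrn (-0.76 ± 0.22, adjusted p = 0.0090) and perlecan, Hspg2 (-0.70 ± 0.19, adjusted p = 0.0057). Nid1, the other nidogen, had log2 differences of 0.53 ± 0.17 at day 2 of caMKK6 (adjusted p = 0.022) and 0.42 ± 0.17 at day 7 (adjusted p = 0.060).

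Of the matricellular genes, the class of Postn, 4 of 7 fell and 1 rose at day 7 of caMEK1, among them Thbs1 (187 ± 53.0 against 1422 ± 67.6 FPKM, -2.96 ± 0.14, adjusted p = 8.9e-13) and Sparc (-1.67 ± 0.13, adjusted p = 1.7e-09), with Tgfbi, the closest relative of Postn, higher (0.85 ± 0.24, adjusted p = 0.0054). With caMKK6 2 of 7 rose at day 7, fibronectin Fn1 (879 ± 255 against 431 ± 44.3 FPKM, 1.00 ± 0.22, adjusted p = 0.0011) and tenascin C, Tnc (0.67 ± 0.17, adjusted p = 0.0034). Tgfbi was not called there (0.46 ± 0.24, adjusted p = 0.14). Only 3 of 10 tendon and ligament genes passed the filter in MEFs. Beside Fmod, Scx, the tendon transcription factor upstream of Tnmd in development, rose at day 7 of caMEK1 (0.57 ± 0.19, adjusted p = 0.014), and Mkx rose with caMEK1 (0.34 ± 0.13, adjusted p = 0.029) and fell with caMKK6 (-0.57 ± 0.13, adjusted p = 0.0016).

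**Figure D4:**
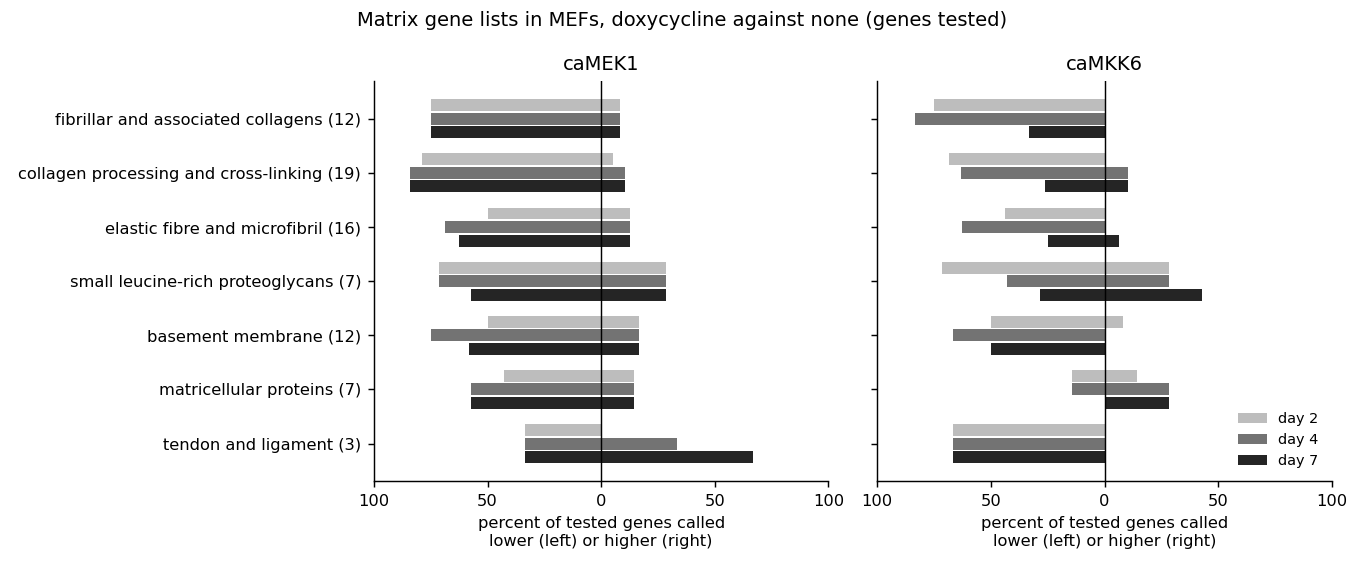
Percent of the tested genes of each matrix list called lower (left) or higher (right) at days 2, 4 and 7, for caMEK1 and caMKK6 MEFs against untreated MEFs, with the number tested in brackets. On caMEK1 the collagens stay at 9 of 12 lower on every day, while on caMKK6 they go from 9 of 12 at day 2 to 4 of 12 at day 7.

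In liver and colon epithelium, tissues whose matrix is made mostly by stromal cells, most members were near the limit of detection. Hepatocyte markers reached 1 FPKM in every liver library for 7 of 7 genes, as did 7 of 7 colon epithelium markers in colon. In liver, caMEK1 mCherry cells held 5.55 to 14.1 FPKM of frog MEK1, and caMKK6 mCherry cells 216 and 1211 FPKM of human MKK6. The mCherry reporter stood at 4.24 to 12.2 FPKM in caMEK1 mCherry liver cells. It stood at 4727 and 3985 FPKM in control mCherry liver cells, and at 678 and 750 FPKM in control GFP liver cells on doxycycline. Tnmd was listed at 0 in all 46 of these libraries, Aspn at 0 in 22 of 23 liver and 14 of 23 colon libraries, and Lox had a median of 0 in both tissues with a highest value of 1.74 FPKM in a caMEK1 mCherry liver library. Loxl4, Nid2 and Postn passed the filter in liver and Loxl4 and Nid2 in colon, so the other members did not enter the fits there.

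Nid2 fell in liver with either kinase and in both colours. Control mCherry libraries held 2.13 and 2.05 FPKM, caMEK1 mCherry libraries 0.246, 0.310 and 0.421 FPKM, and caMKK6 mCherry libraries 0.215 and 0.761 FPKM. The log2 differences were -1.22 ± 0.27 (adjusted p = 0.0029, where 16.3% of all genes fell) and -1.08 ± 0.30 (adjusted p = 0.010, where 9.29% fell). GFP cells of untreated caMEK1 mice held 2.22, 2.80 and 3.02 FPKM, and those of caMEK1 mice on doxycycline 1.33, 0.910 and 1.57 FPKM, a difference of -0.70 ± 0.24 (adjusted p = 0.030, where 32.0% fell). In caMKK6 mice the GFP cells held 2.61, 2.85 and 3.09 FPKM untreated and 0.346 and 2.64 FPKM on doxycycline (-0.80 ± 0.27, adjusted p = 0.048, where 13.8% fell), and the last of these lay among the untreated libraries. GFP cells of control mice held 3.37, 3.43 and 4.24 FPKM untreated and 2.85 and 3.05 FPKM on doxycycline, so their mean was lower on the drug too. That difference, and whether the kinase mice differed from it, was not tested. The 2 GFP calls were not firm. Median scaling gave -0.53 (adjusted p = 0.11) and -0.74 (adjusted p = 0.064). The median over all genes was -0.25 in the caMEK1 GFP, -0.07 in the caMKK6 GFP and 0.25 in the caMKK6 mCherry comparison. The background moved with scaling too. In the caMEK1 GFP comparison 3319 of the 10371 genes tested fell and 670 rose, against 1732 and 1088 with median scaling and 1391 and 1071 with quantile normalization. In the caMKK6 GFP comparison 1434 fell and 540 rose, against 1197 and 732 with median scaling and 909 and 667 with quantile normalization. In the caMKK6 mCherry comparison 963 fell and 2995 rose, against 1805 and 1173 with median scaling and 1390 and 1441 with quantile normalization. In the caMEK1 mCherry comparison 1694 fell and 1112 rose, against 1484 and 1490 with quantile normalization. A pseudocount of 0.1, no filter and quantile normalization lost both as well (adjusted p = 0.0532 to 0.0833).

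Single animals carried part of this. The caMKK6 animal of replicate 1 had less MKK6 transgene than that of replicate 2. It held 216 against 1211 FPKM in mCherry cells and 1.51 against 30.9 FPKM in GFP cells. The part of transgene level in the Nid2 values was not tested. Without the caMKK6 animal with the low values (replicate 1) the Nid2 difference was -0.81 in mCherry cells (adjusted p = 0.11) and -0.08 in GFP cells (adjusted p = 0.89). The mCherry call was also lost without control replicate 1 or 2 (adjusted p = 0.0512 and 0.0559), and the GFP call without any 1 of the 3 untreated libraries (adjusted p = 0.0865 to 0.102). For caMEK1 the mCherry call held without each library in turn, at -1.28 to -1.18. The caMEK1 GFP call was lost without untreated replicate 2 or 3 or treated replicate 1 or 2 (-0.73 to -0.58, adjusted p = 0.0544 to 0.117). Nid2 reached at most 298 reads in a liver library.

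Over the 23 liver libraries Loxl4 had the highest median of the lysyl oxidases, though it lay below Loxl2 in treated caMKK6 replicate 1. It was lower with caMKK6. Control mCherry libraries held 3.48 and 4.63 FPKM and caMKK6 mCherry libraries 0.113 and 1.34 FPKM (-1.64 ± 0.42, adjusted p = 0.0071). GFP cells held 3.78, 2.86 and 3.51 FPKM in untreated caMKK6 mice and 0.147 and 1.38 FPKM on doxycycline (-1.40 ± 0.39, adjusted p = 0.019). The lower treated value in each colour came from replicate 1. Without it the differences were -1.10 (adjusted p = 0.11) and -0.88 (adjusted p = 0.34), and the calls were also lost without control mCherry replicate 2 (-1.47, adjusted p = 0.066) and untreated GFP replicate 1 (-1.34, adjusted p = 0.059). With caMEK1 Loxl4 was not called in mCherry cells (4.56, 3.22 and 1.07 FPKM, -0.46 ± 0.39, adjusted p = 0.42) or in GFP cells (2.83, 1.90 and 1.963 FPKM, -0.30 ± 0.34, adjusted p = 0.52). GFP cells of untreated control mice, at 6.46, 5.60 and 6.54 FPKM, stood above those of untreated mice of both kinase genotypes, and control mice on doxycycline held 4.37 and 6.73 FPKM.

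Postn in liver was highest in 1 animal. The caMEK1 animal of replicate 3 held 3.69 FPKM in mCherry and 14.2 FPKM in GFP cells, against at most 0.692 FPKM in the other caMEK1 libraries on doxycycline and 1.38 FPKM in the remaining liver libraries. Its GFP library also had the highest sums of the fibroblast (39.5 FPKM), endothelial (106.9 FPKM) and macrophage (335.1 FPKM) markers of all 23, whereas in its mCherry library they ranked 11, 12 and 16. The stellate and smooth muscle markers summed to 22.3 FPKM in its GFP library (rank 2 of 23) and 14.5 FPKM in its mCherry library (rank 4, above the other mCherry libraries). The part of such cells in the Postn values was not tested. Beside this animal only 1 liver library, of control GFP cells on doxycycline, reached 1 FPKM of Postn. Postn thus passed the filter only through the animal in which it was high, and its differences are given with no test. They were 0.68 ± 0.71 in mCherry cells and 1.41 ± 0.64 in GFP cells. Leaving out GFP replicate 1 gave 2.05 in GFP cells, and leaving out replicate 3 gave 0.30.

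In colon Loxl4 was read in caMEK1 mice on doxycycline. Their mCherry libraries held 3.82 and 11.04 FPKM (132 and 375 reads) and the GFP libraries of the same animals 0.388 and 1.504 FPKM (13 and 59 reads). Every other colon library held at most 2 reads, and both control mCherry libraries held 0, where 3 reads would be at most 0.058 FPKM, so the mCherry level was at least 65.9-fold higher. Loxl4 passed the filter only through these caMEK1 libraries, so it had to differ there, and its values are given with no test.

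Nid2 in colon was not called in any of the 4 comparisons. Control mCherry libraries held 1.26 and 2.73 FPKM, caMEK1 mCherry libraries 0.730 and 0.623 FPKM, and caMKK6 mCherry libraries 1.58, 0.610 and 1.30 FPKM. The differences were -0.79 ± 0.29 (adjusted p = 0.059) and -0.45 ± 0.27 (adjusted p = 0.24). The caMEK1 difference was called with a pseudocount of 0.1 (-1.34, adjusted p = 0.039) and without control replicate 1 (-1.15, adjusted p = 0.026). In GFP cells the treated libraries held 0.851 and 0.976 FPKM with caMEK1 and 0.705, 1.30 and 1.38 FPKM with caMKK6, all below the untreated libraries of their genotype at 1.85 FPKM or more, as were 25.5% and 14.2% of all genes. The adjusted p-values were 0.13 and 0.14 in these comparisons. GFP cells of control mice held 2.27, 1.82 and 3.15 FPKM untreated and 1.74 and 3.77 FPKM on doxycycline. The stellate and smooth muscle list, led in colon by Lrat, summed to 1.30 to 3.81 FPKM in untreated and 0.539 to 0.547 FPKM in treated GFP cells of caMEK1 mice, to 2.32 to 3.34 and 0.520 to 0.922 FPKM in those of caMKK6 mice, and to 0.218 to 0.719 FPKM in mCherry cells of both against 1.89 to 6.16 FPKM in control mCherry cells. The fibroblast list summed to 4.21 to 7.20 FPKM in untreated and 2.30 to 3.17 FPKM in treated GFP cells of caMEK1 mice, and to 2.36 to 2.92 FPKM in their mCherry cells against 4.08 to 6.48 FPKM in control mCherry cells. With caMKK6 the fibroblast sums of treated cells, 3.10 to 6.16 FPKM, overlapped those of untreated GFP cells (4.88 to 13.2 FPKM) and of the control mCherry cells. The part of such cells in the Nid2 values was not tested.

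**Figure D5:**
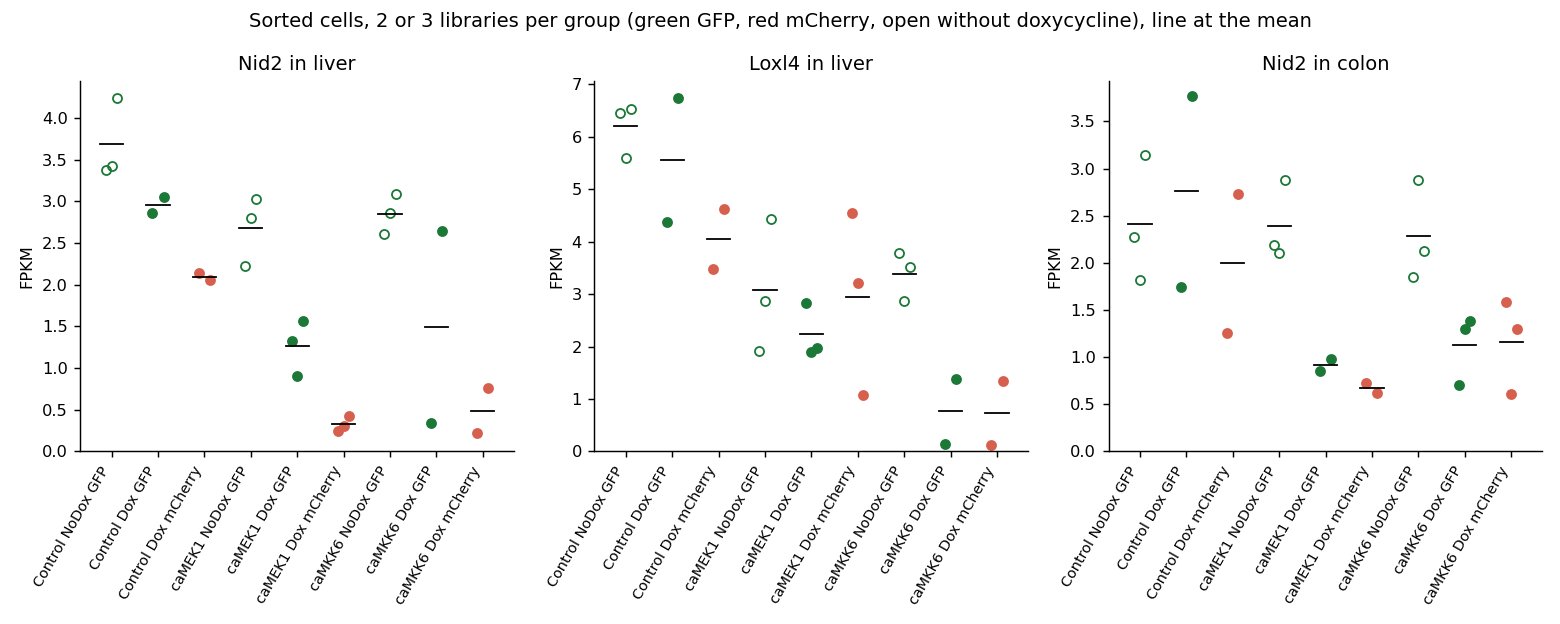
FPKM of Nid2 in liver, Loxl4 in liver and Nid2 in colon by group, 1 point per library (green GFP, red mCherry, open without doxycycline) and a line at the mean of 2 or 3 libraries. Nid2 in caMEK1 mCherry liver cells lies between 0.246 and 0.421 FPKM, and the caMKK6 groups hold 1 low animal in liver.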

How the data were processed

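Per the submitters' processing notes, the authors trimmed reads with cutadapt 1.12 and aligned them to mm10 (GRCm38) with STAR 2. The counting tool and annotation are not given in the sources used here. The deposited table holds FPKM for 21863 entries, 4 of them transgenes or reporters. Gene IDs were matched to GENCODE release M21 (21191 of the same version), and the steps between FPKM values gave the depths, since 100% of values below 1000 reads lay within 0.02 of a whole read. Libraries were mapped to 26 groups by their labels.

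For MEFs, liver and colon apart, log2(FPKM + 1) was fitted by group in R 4.3.3 with limma 3.58.1, using lmFit and the eBayes trend. A gene entered if 3 MEF libraries, or 2 of liver or colon, reached 1 FPKM. This left 11347, 10371 and 11542 genes with 16, 14 and 14 residual degrees of freedom. Calls needed a two-sided p below 0.05 after Benjamini-Hochberg adjustment over all genes, and rose and fell are used of called genes. The lone sample of an arm, where libraries were left out, is assumed to vary like the other groups. Summaries used pandas 2.3.3 and numpy 2.4.6 (Python 3.11.15), and the fit was tested on simulated data.

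The members and lists were chosen with earlier results of these data known. Named were all 10 members, from each list up to 3 called genes per kinase with the largest day 7 difference whose higher group averaged 5 FPKM or more, the 3 genes most like each member (averaging 5 FPKM or more, predicted genes left out) and the neighbours of Aspn. Ltbp1, Ltbp3, Ltbp4, Nid1, Eln, Bmp1, Tgfbi, Scx and Mkx were added as relatives or partners of members, and Egr1 after its values were seen.

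Alternatives were a pseudocount of 0.1, no filter, median scaling, quantile normalization, voom on recovered reads, a replicate block, each genotype fitted alone, each library left out and caMKK6 libraries listing frog MEK1 left out. Same-numbered MEF libraries of a genotype deviated together (r of 0.254 to 0.761 for caMEK1 and 0.112 to 0.803 for caMKK6, all 18 pairs each above 0.1) and those of different genotypes did not (median r of -0.069), so a block within genotype was added after seeing the data.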

Additional observations from a re-analysis of the deposited data

Results flagged for a closer look

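Postn was the 1 member with every treated library below the untreated ones for caMEK1 and above them for caMKK6. The caMEK1 minus caMKK6 difference of the log2 changes was -2.61 at day 2, -4.12 at day 4 and -3.41 at day 7. It was not tested, since these comparisons chose the gene.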

How the results depend on the processing

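Counts of members wholly below the untreated MEFs stayed within 1.5 times their value under every scaling and with voom. They did so too without the libraries listing frog MEK1 and without each library. Leaving libraries out cannot lower a count of this kind, so nothing is read from those settings. All caMEK1 counts of matrix genes also stayed within 1.5 times their value under the same settings. Without the libraries listing frog MEK1 the caMKK6 counts of matrix genes lower and higher were 14 and 2 (day 2), 24 and 2 (day 4) and 11 and 3 (day 7), from 42 and 4, 45 and 6 and 22 and 8. Leaving out 1 library gave 11 to 29 lower at day 7 of caMKK6. The replicate block within genotype, whose numbers pair the libraries, gave 7 higher at day 2 of caMKK6 and raised the members called at the 4 day steps from 4, 1, 1 and 1 to 7, 4, 3 and 2. A block over both genotypes gave 2 for day 4 to 7 of caMEK1, and each genotype alone gave 3 there and 0 for day 4 to 7 of caMKK6. Voom gave 0 for day 4 to 7 of caMEK1 and for day 2 to 4 of caMKK6. With 1 library left out the 4 steps ranged over 3 to 4, 0 to 1, 0 to 1 and 0 to 3. Without the libraries listing frog MEK1 0 members were called for day 4 to 7 of caMKK6, and 1 of 3 between untreated genotypes. In liver a pseudocount of 0.1, no filter, median scaling and quantile normalization each gave 0 members for caMEK1 GFP cells and 1 for caMKK6 GFP cells, from 1 and 2. With 1 library left out these were 0 to 1 and 0 to 2, and 0 to 2 for caMKK6 mCherry cells. The 1 member for caMEK1 GFP cells without treated replicate 1 was Postn, for which no test is read. In colon a pseudocount of 0.1 gave 2 members for caMEK1 mCherry cells and 1 for GFP cells, from 1 and 0, and 1 library left out gave 1 to 2 for the former, each of these counts above 0 including Loxl4, which had to differ there. The block by animal changed no call in liver or colon. The cause of these changes was not tested beyond the fewer samples that leaving libraries out leaves.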
